A study of Mus musculus with 48 samples.

Results

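Macrophages take in iron from transferrin and from engulfed red cells, store it in ferritin, and release it to the blood, and they also withhold it from microbes. The 7 genes described here cover those steps: Slc40a1 (ferroportin, the iron exporter of the cell surface), Tfrc (transferrin receptor 1), Slc11a2 (DMT1, a transporter that moves ferrous iron out of endosomes), Fth1 and Ftl1 (the heavy and light chains of ferritin), Slc11a1 (NRAMP1, a metal transporter of the phagosome) and Lcn2 (lipocalin 2, a secreted protein that binds bacterial siderophores). They were chosen by function from a table of 49315 genes, with results of the same libraries in view: Slc40a1 was selected on its lower level with LPS and in LynKO cells. Its values in those contrasts are therefore given as a description, with no test. All 7 genes passed the filter on low counts, as did 13986 genes in all.

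The libraries came from bone marrow-derived macrophages, grown from mouse marrow with M-CSF from CMG14-12 conditioned medium and rested overnight without it. The labels name 4 genotypes: LynKO, LynAKO, LynBKO and WT. Lyn is a Src-family kinase with 2 splice isoforms, LynA and LynB, and LynAKO and LynBKO each lack the isoform they are named for. Each genotype was represented by 4 mice, of which 2 were male. For 2 h the cells received LPS at 2 ng/mL (from S. Minnesota R595), which Toll-like receptor 4 senses, or R848 at 20 ng/mL, which Toll-like receptor 7 senses, or medium alone (NT). M-CSF was absent from the medium of all 12 groups during treatment. Strain, alleles and ages of the mice are not stated. The series title places Lyn in Toll-like receptor activation and in proliferation; iron handling is not named there.

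Iron-dependent control of several of these genes acts on the mRNA. When iron is scarce, iron regulatory proteins bind a short hairpin, the iron responsive element. Bound in a 5′ UTR, as in ferritin and ferroportin mRNA, they block translation; bound in a 3′ UTR, as in transferrin receptor mRNA, they protect the mRNA from decay. Inflammatory signals also set the level of iron genes by transcription, and counts of polyA RNA show the mRNA level but not translation or protein.

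The elements are shown because they divide the members into those whose mRNA stability and those whose translation iron is known to act on. Protein coding transcripts of GENCODE M21 (GRCm38) were searched for a C, a stem of 5 paired bases with G:U pairs allowed, and the loop CAGTGN, with at most 1 unpaired base on the 3′ side of the stem. Matches lay in UTRs of 5 of the 7 members and of 2.37% of all 21901 protein coding genes; the figure was 0.731% without the unpaired base, a form that 4 members matched. Each sequence is given 5′ to 3′ with 5 flanking bases, and capitals mark the loop.
Slc40a1, 5′ UTR, chr1:45925466-45925492, minus strand: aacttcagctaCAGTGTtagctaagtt
Fth1, 5′ UTR, chr19:9982733-9982759, plus strand: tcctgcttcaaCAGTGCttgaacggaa
Ftl1, 5′ UTR, chr7:45459780-45459806, minus strand: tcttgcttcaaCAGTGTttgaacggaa
Tfrc, 3′ UTR, chr16:32631220-32631246, plus strand: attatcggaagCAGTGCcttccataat
Tfrc, 3′ UTR, chr16:32631599-32631625, plus strand: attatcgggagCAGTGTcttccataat
Tfrc, 3′ UTR, chr16:32631664-32631690, plus strand: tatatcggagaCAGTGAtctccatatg
Tfrc, 3′ UTR, chr16:32631711-32631737, plus strand: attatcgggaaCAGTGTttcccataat
Slc11a2, 3′ UTR, chr15:100395153-100395180, minus strand: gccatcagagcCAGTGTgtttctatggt

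The ferritin chains carried nearly the same element, and Tfrc held 4 matches in its 3′ UTR. Slc11a1 and Lcn2 held none by this pattern. The Slc11a2 element had the unpaired base and lies in the 3′ UTR of some isoforms only. The Fth1 element lay in 4 protein coding transcripts and each other element in 1. These 5 genes have 6 to 9 annotated transcripts each over all types, of which only the protein coding ones were searched. The counts are per gene and do not separate isoforms with and without an element.

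Library totals were 14974764 to 23321447 counts, and the median correlation of a library with the others of its group was 0.97458 to 0.99017. Lyn itself was lowest in LynKO cells, at 67.6 ± 4.15 CPM (counts scaled to library size with TMM factors) without ligand, against 177 ± 10.4 CPM in WT cells (SD, n = 4 each). LynAKO and LynBKO cells lay between them, at 118 ± 11.5 and 126 ± 6.38 CPM. The libraries LynBKO NT 4 and LynKO NT 4 held transcripts of both sexes, and the replicate numbers of LynBKO NT libraries did not pair with those of treated LynBKO cells. Results that differ without those 2 libraries are given with both values. Macrophage markers such as Lyz2 and Csf1r were abundant in every group, and the defining erythroid marker Hba-a1 had 1 count over all libraries. The summed erythroid markers reached at most 0.862 CPM. In these bulk samples fewer cells of a type and less RNA per cell cannot be told apart.

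The 7 mRNAs differed widely in level. Scaled by summed exon length, Ftl1 averaged 5210 CPM per kb over all libraries and Fth1 3798 CPM per kb, while Slc11a1 averaged 96.4, Slc11a2 31.1, Lcn2 14.1, Tfrc 3.94 and Slc40a1 2.92 CPM per kb. Among all tested genes Fth1 ranked 2 and Ftl1 ranked 7 by mean CPM. Ferritin pseudogenes took few counts: Ftl1-ps1 held 26489 counts over all libraries and Ftl2-ps 1215, against 6213706 for Ftl1, and the other 6 held 0 to 174. Ftl1 also overlaps Gm10252 on the other strand and the miRNA gene Gm22133, and Slc11a2 overlaps Gm5475 on the other strand. No strand setting of the counting is known here, so those 2 members are uncertain to that extent.

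**Figure D1:**
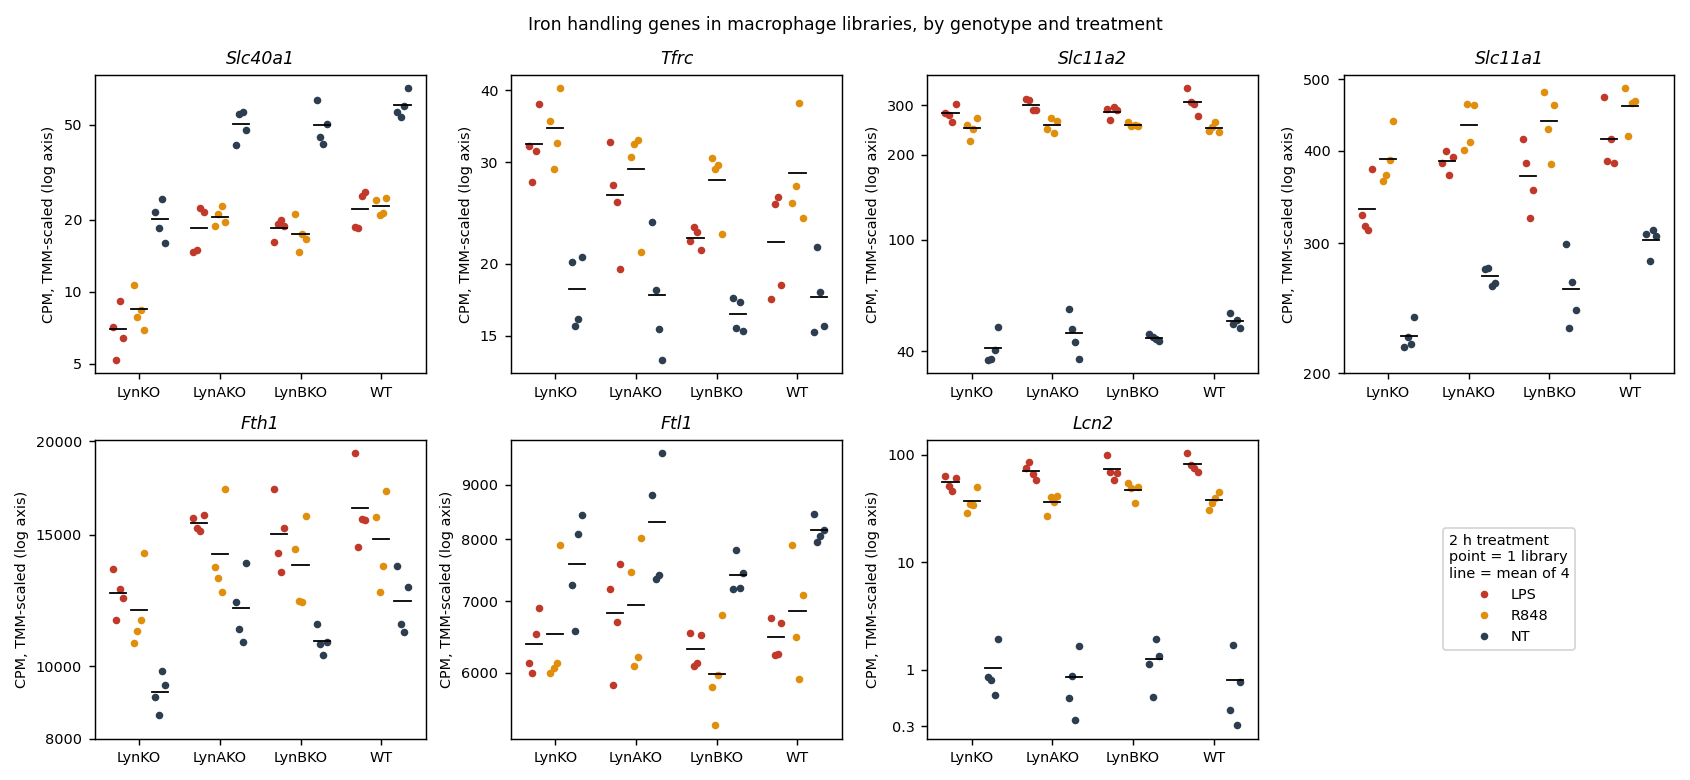
CPM (TMM-scaled, log axis) of each of the 7 genes in each library by genotype and 2 h treatment; points are libraries and lines are means of 4. Slc40a1 is lowest in LynKO cells with LPS (5.19 to 9.18 CPM) and highest in WT cells without ligand (53.9 to 71.0 CPM), whereas Lcn2 is below 2 CPM in every library without ligand.

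Slc40a1 (ENSMUSG00000025993, chromosome 1, 45908068 to 45926523, minus strand), the only known cellular iron exporter of vertebrates, was lower with either ligand in every genotype and lower in LynKO than in every other genotype at every treatment. LynKO cells had 7.10, 5.19, 9.18 and 6.39 CPM with LPS, 10.7, 7.88, 8.36 and 6.94 CPM with R848, and 21.6, 18.5, 24.3 and 15.9 CPM without ligand. WT cells had 18.7, 18.5, 25.3 and 26.2 CPM with LPS, 24.3, 20.9, 21.3 and 24.6 CPM with R848, and 56.4, 53.9, 59.7 and 71.0 CPM without ligand. In both genotypes the ligand groups lay below the NT group with no overlap, and the LPS and R848 groups overlapped.

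Neither single isoform knockout gave the low level of LynKO cells. LynAKO cells averaged 18.4 ± 4.19 CPM with LPS, 20.6 ± 1.80 CPM with R848 and 50.1 ± 7.27 CPM without ligand. LynBKO cells averaged 18.5 ± 1.68, 17.5 ± 2.76 and 49.8 ± 9.71 CPM under the same treatments (SD, n = 4 each). Ordered by mean, the 12 groups formed 3 blocks with gaps between them. LynKO cells with LPS or R848 were at or below 10.7 CPM. LynKO cells without ligand stood among the ligand-treated cells of the other 3 genotypes, all between 14.6 and 26.2 CPM. The NT groups of LynBKO, LynAKO and WT were at or above 41.0 CPM. Within each block every group overlapped its neighbour in the order.

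The log2 difference of LPS from NT in Slc40a1 was −1.55 ± 0.18 (SE) in LynKO, −1.45 ± 0.14 in LynAKO, −1.42 ± 0.13 in LynBKO and −1.43 ± 0.13 in WT cells, values that led to its choice. R848 minus NT, which shares the NT libraries with that contrast and is therefore also described without a test, was −1.26 ± 0.18 in LynKO, −1.27 ± 0.14 in LynAKO, −1.51 ± 0.13 in LynBKO and −1.38 ± 0.13 in WT cells. LynKO minus WT was −1.66 ± 0.18 with LPS, −1.43 ± 0.14 with R848 and −1.57 ± 0.14 without ligand, again as a description. LynKO cells with R848 had 8.46 ± 1.58 CPM, and WT cells 22.8 ± 1.96 CPM. The LPS response of Slc40a1 in LynKO cells minus that in WT cells was −0.10 ± 0.23 and the R848 response difference 0.16 ± 0.23 (log2).

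Ligand comparisons called most tested genes. By edgeR's quasi-likelihood test with Benjamini-Hochberg adjustment, LPS minus NT passed the threshold (adjusted p of 0.05) for 61.7% of tested genes in LynKO, 60.7% in LynAKO, 67.3% in LynBKO and 61.6% in WT cells, and R848 minus NT for 55.3%, 56%, 63.5% and 56.7% in the same order of genotypes. Against that background 23 of 24 pairs of a member other than Slc40a1 and a genotype passed for LPS (19 higher, 4 lower), and 22 of 24 for R848 (20 higher, 2 lower). A pass is common among the genes of these libraries, so little is read from these counts. The scaling matters as well: with total counts in place of TMM the median of all genes stood at −0.54 to −0.48 (log2) for LPS and −0.40 to −0.32 for R848. Fewer pairs then passed. For LPS 9 of 24 were higher and 4 lower. For R848, with the 4 pairs of Slc40a1 counted, 14 of 28 were higher and 8 lower, where TMM gave 20 and 6 of the same pairs. The 4 pairs of Slc40a1 are among the lower ones under both scalings and are not read as tests. Changes below are relative to the TMM scale, whose medians lay between −0.05 and −0.02. Markers of other kinds also differed on that scale. With LPS in WT cells 2 of 8 tested proliferation markers were higher and 0 lower, 4 of 8 neutrophil and granulocyte markers were higher and 0 lower (median log2 change 1.32), and 4 of 6 dendritic cell markers were higher and 0 lower (median 2.31). Of 10 macrophage markers 3 were higher and 3 lower (median 0.03). With R848 in WT cells 4 proliferation markers were higher and 0 lower, 6 neutrophil markers higher and 1 lower, 2 dendritic cell markers higher and 1 lower, and 3 macrophage markers higher and 3 lower. Summed dendritic cell markers, by total counts, were 6.61 to 8.57 CPM with LPS, 5.05 to 9.55 CPM with R848 and 1.36 to 1.72 CPM without ligand. The part of these markers in the ligand differences was not tested.

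Slc11a2 (ENSMUSG00000023030, chromosome 15, 100387898 to 100425072, minus strand) rose 6.07- to 6.83-fold with LPS and 4.96- to 6.00-fold with R848, the largest rise of the members after Lcn2. WT cells had 346, 309, 305 and 275 CPM with LPS, 243, 251, 263 and 242 CPM with R848, and 54.6, 50.2, 51.8 and 48.6 CPM without ligand. No ligand library of any genotype reached down to the highest NT library. The log2 change with LPS was 2.77 ± 0.10 in LynKO (adjusted p = 6.42e-13), 2.70 ± 0.11 in LynAKO (9.44e-13), 2.67 ± 0.06 in LynBKO (9.96e-17) and 2.60 ± 0.08 in WT cells (1.42e-14) by edgeR's quasi-likelihood test, and it remained 2.09 to 2.33 with total counts.

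Tfrc (ENSMUSG00000022797, chromosome 16, 32608920 to 32632794, plus strand), the receptor that internalises iron-loaded transferrin, rose less. With R848 it rose in 4 of 4 genotypes, by 0.73 to 0.91 on the log2 scale (largest adjusted p = 0.00243, edgeR quasi-likelihood); with total counts the LynAKO (0.40, 0.0619) and WT calls (0.37, 0.0607) were lost. With LPS it rose in LynKO (0.83 ± 0.13, adjusted p = 3.24e-05), LynAKO (0.57 ± 0.18, 0.012) and LynBKO cells (0.44 ± 0.09, 0.000456, but −0.05 with total counts). In WT cells the LPS difference was 0.33 ± 0.16 (adjusted p = 0.0868); with the replicate number as a block it was 0.32 (0.0182), and with total counts −0.18. LynKO libraries had 32.0, 27.8, 31.4 and 37.8 CPM with LPS, 35.5, 29.2, 32.4 and 40.4 CPM with R848, and 20.1, 15.6, 16.04 and 20.5 CPM without ligand. WT libraries had 17.4, 25.4, 26.1 and 18.4 CPM with LPS, 25.5, 27.3, 37.99 and 24.01 CPM with R848, and 15.3, 21.4, 17.9 and 15.6 CPM without ligand. In LynKO cells both ligand groups stood clear of NT, whereas in WT cells the LPS group overlapped it. The LynAKO call for LPS was lost without replicate 2 (adjusted p = 0.0515) or replicate 3 (0.0643), and with total counts (0.08, adjusted p = 0.695).

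Tfrc and Slc40a1 stand at the uptake and export ends of the pathway, and their ratio within a library does not depend on the scaling. As log2 of Tfrc over Slc40a1 counts it averaged 2.23 with LPS and −0.15 without ligand in LynKO cells, and −0.03 with LPS and −1.79 without ligand in WT cells. The LynKO range without ligand (−0.60 to 0.37) overlapped the WT range with LPS (−0.51 to 0.46). LynKO cells with LPS (1.77 to 2.57) stood above every group of the other genotypes. Because Slc40a1 was selected on these contrasts, the ratio is a description only.

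**Figure D2:**
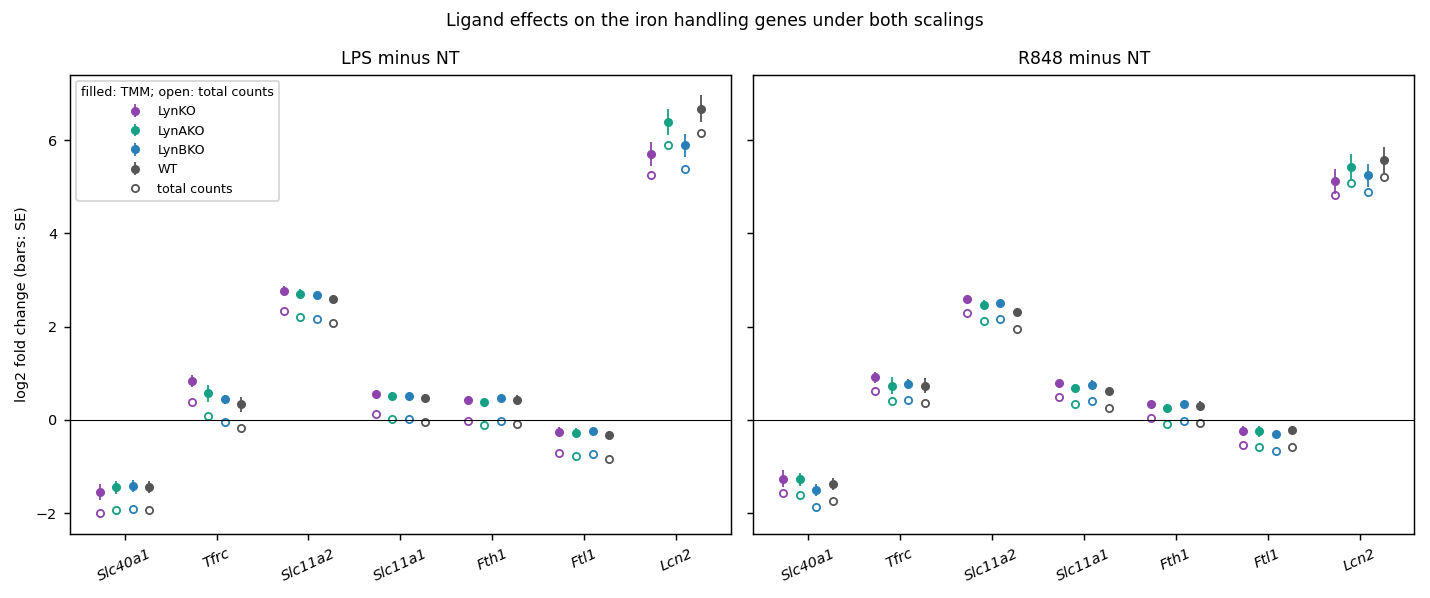
log2 fold change of each gene with LPS (left) and R848 (right) against NT in each genotype; filled points are TMM-scaled with SE bars, open points use total counts. Slc11a2 and Lcn2 are above 0 and Slc40a1 and Ftl1 below 0 under both scalings, whereas Fth1 with either ligand (LynKO with R848 excepted), Tfrc with LPS in LynBKO and WT cells and Slc11a1 with LPS in WT cells change sign with total counts.

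The ferritin chains moved apart with ligand. Fth1 (ENSMUSG00000024661, chromosome 19, 9980598 to 9985098, plus strand), the chain that oxidises ferrous iron, rose in 4 of 4 genotypes with LPS, by 0.37 to 0.48 on the log2 TMM scale, and with R848, by 0.25 to 0.35, but with total counts the same 8 differences were −0.12 to 0.05 and none passed. WT cells had 19280, 14450, 15750 and 15700 CPM with LPS, 15830, 12560, 13630 and 17170 CPM with R848, and 13610, 11380, 11120 and 12770 CPM without ligand. The LPS group of WT cells did not overlap NT, and the R848 group did. Calls for R848 were lost when single replicates were left out: in LynAKO without replicate 1 (0.28, adjusted p = 0.0762), 2 (0.25, 0.128) or 3 (0.26, 0.0917), and in WT without replicate 3 (0.27, 0.0876) or 4 (0.25, 0.114), by edgeR's quasi-likelihood test.

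Ftl1 (ENSMUSG00000050708, chromosome 7, 45457944 to 45459884, minus strand), the chain that helps to form the mineral core, fell with LPS in 4 of 4 genotypes, by 0.26 in LynKO, 0.28 in LynAKO, 0.23 in LynBKO and 0.32 in WT cells on the log2 scale (largest adjusted p = 0.0368, edgeR quasi-likelihood). With total counts the LPS differences were −0.83 to −0.70. With R848 it fell in LynBKO (−0.31 ± 0.07, adjusted p = 0.000665) and WT cells (−0.23 ± 0.08, 0.0296). The R848 difference was −0.23 ± 0.10 in LynKO (0.056) and −0.25 ± 0.11 in LynAKO cells (0.0695), and with the replicate number as a block these passed (0.00137 and 0.000115). WT cells had 6745, 6233, 6249 and 6677 CPM with LPS, 7900, 6476, 5918 and 7099 CPM with R848, and 8456, 7961, 8066 and 8158 CPM without ligand, so both ligand groups lay below NT. The LPS call was lost in LynKO cells without replicate 1 (adjusted p = 0.11), replicate 3 (0.13) or the library LynKO NT 4 (−0.20, 0.106), and in LynAKO cells without replicate 1 (0.0999), 2 (0.091) or 3 (0.0593). The R848 call in WT cells was lost without replicate 2 (0.13), 3 (0.08) or 4 (0.0715).

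Within a library the ratio of Fth1 to Ftl1 counts is free of the scaling. Its log2 averaged 0.97 with LPS, 0.87 with R848 and 0.29 without ligand in LynKO cells, and 1.32, 1.11 and 0.58 in WT cells. Every ligand library of a genotype lay above every NT library of that genotype. LynKO cells also lay below WT at each treatment with no overlap: 0.84 to 1.14 against 1.21 to 1.52 with LPS, 0.84 to 0.91 against 0.96 to 1.28 with R848, and 0.16 to 0.39 against 0.46 to 0.69 without ligand. LynAKO and LynBKO cells overlapped WT at every treatment, with NT means of 0.53 and 0.54.

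**Figure D3:**
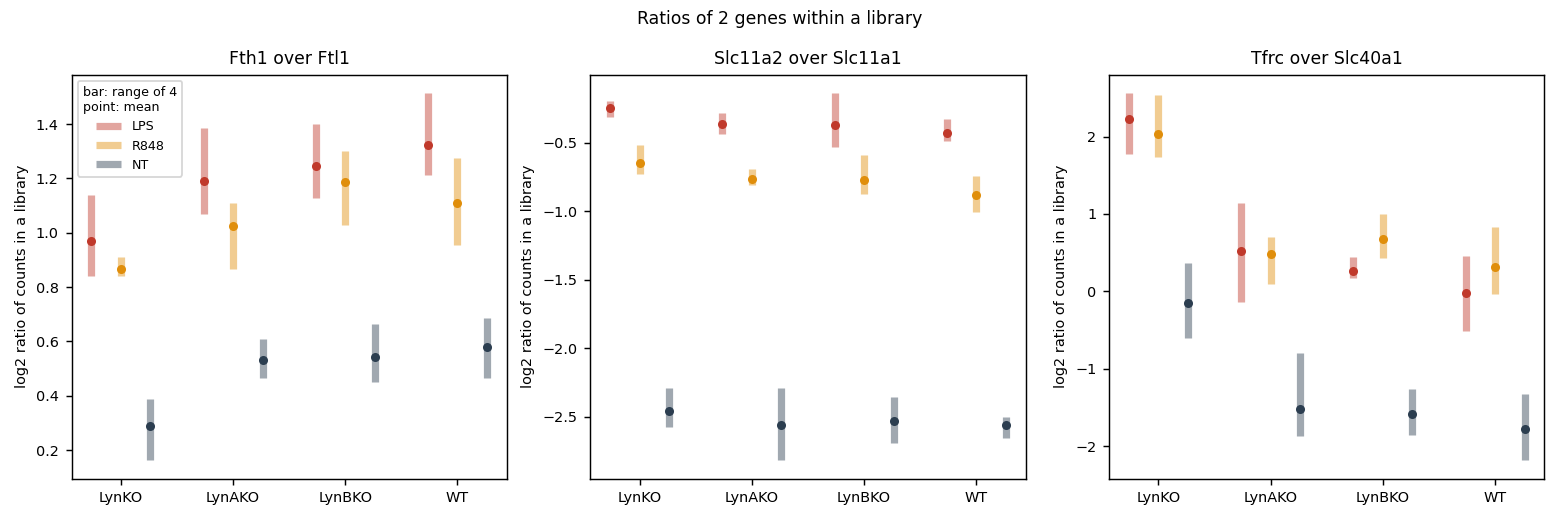
log2 ratio of the counts of 2 genes in a library, by genotype and treatment; points are means and bars the range of 4 libraries. Fth1 over Ftl1 is higher with LPS or R848 than in NT in every genotype and lower in LynKO (0.16 to 0.39 in NT) than in WT (0.46 to 0.69 in NT).

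Slc11a1 (ENSMUSG00000026177, chromosome 1, 74375195 to 74386062, plus strand) moves metal ions across the phagosome membrane, and common laboratory strains of mouse differ in its function. It rose by 0.47 to 0.56 with LPS and 0.63 to 0.78 with R848 (log2) in 4 of 4 genotypes (largest adjusted p = 0.000103, edgeR quasi-likelihood), but for LPS with total counts the differences were −0.05 in WT cells and 0.01 to 0.12 in the knockouts, and none passed. WT cells had 474, 387, 415 and 385 CPM with LPS, 487, 420, 465 and 468 CPM with R848, and 309, 284, 312 and 307 CPM without ligand. All WT ligand libraries lay above all WT NT libraries. The ratio of its relative Slc11a2 to it, as log2 of counts not scaled by length, averaged −0.43 with LPS, −0.88 with R848 and −2.56 without ligand in WT cells. In each genotype the LPS libraries lay above the R848 libraries in this ratio, and those above NT.

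Lcn2 (ENSMUSG00000026822, chromosome 2, 32384633 to 32388252, minus strand) was near the detection limit without ligand and rose with either ligand in 4 of 4 genotypes. LynKO cells had 63.3, 50.7, 46.0 and 60.7 CPM with LPS, 28.7, 34.6, 34.1 and 49.9 CPM with R848, and 0.856, 0.803, 0.585 and 1.93 CPM without ligand. WT cells had 103, 80.9, 74.8 and 69.4 CPM with LPS, 30.4, 35.7, 39.8 and 45.5 CPM with R848, and 0.419, 1.70, 0.306 and 0.768 CPM without ligand. NT libraries of the 4 genotypes held only 8 to 49 counts each, which limits the precision of the fold. The fitted log2 change with LPS was 5.71 ± 0.26 in LynKO, 6.39 ± 0.28 in LynAKO, 5.89 ± 0.25 in LynBKO and 6.68 ± 0.29 in WT cells (largest adjusted p = 1.95e-11, edgeR quasi-likelihood), a rise of 52.3- to 102-fold. With R848 the rise was 34.7- to 47.7-fold.

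The ligands were also compared directly. The counts include 4 pairs of Slc40a1, which share the LPS libraries of its choice and are not read as tests. None of those 4 passed, and 7 of 24 pairs of the other members did. Of 28 pairs of a member and a genotype, 7 passed for LPS minus R848 (6 higher and 1 lower; 3 higher and 7 lower with total counts; 12 with the replicate number as a block, in LynBKO cells through a fit that held the NT libraries whose numbers do not pair), against 15.9% of all tested genes in LynKO, 17.6% in LynAKO, 26.5% in LynBKO and 21% in WT cells. Lcn2 was higher with LPS in 4 of 4 genotypes, by 0.59 ± 0.19 in LynKO (adjusted p = 0.0411), 0.96 ± 0.20 in LynAKO (0.0023), 0.65 ± 0.18 in LynBKO (0.0109) and 1.10 ± 0.20 in WT cells (0.000615) on the log2 scale by edgeR's quasi-likelihood test. In LynKO cells the LPS and R848 libraries overlapped. The call there was lost with total counts (0.45, adjusted p = 0.0951), with all 48 libraries in the fit (0.062) and without replicate 1 (0.42, adjusted p = 0.341), 2 (0.165) or 3 (0.106). DESeq2 did not call the LynBKO difference (0.64, adjusted p = 0.0881).

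Slc11a2 was higher with LPS than with R848 in WT (0.29 ± 0.08, adjusted p = 0.012) and LynBKO cells (0.15 ± 0.05, 0.0396), by edgeR's quasi-likelihood test. The WT call was lost without replicate 2 (0.0863) and with total counts (0.14, 0.146). The LynBKO call was lost under most alternatives: with total counts (0.01, adjusted p = 0.872), RLE size factors (0.0579), no filter (0.23), all 48 libraries (0.182), without LynBKO NT 4 and LynKO NT 4 (0.14, 0.075), and without any 1 replicate (largest adjusted p = 0.281). With the block Slc11a2 also passed in LynKO (0.19, 0.0284) and LynAKO cells (0.23, 0.0297). Tfrc was lower with LPS in LynBKO cells (−0.33 ± 0.09, adjusted p = 0.0129), lost with all 48 libraries (0.142) and without replicate 1 (0.0845), 2 (0.0681) or 3 (0.0636). In WT cells the Tfrc difference was −0.41 ± 0.16 (0.0909). There it passed with the block (0.0104), no filter (0.0239) and total counts (0.0209). For Slc11a1 0 of 4 pairs passed (smallest adjusted p = 0.0578), whereas with the block it was lower with LPS in LynKO (−0.22, 0.00456) and LynAKO cells (−0.18, 0.0196), and with total counts in 4 of 4 genotypes. In LynBKO cells (−0.25) it also passed with DESeq2 (0.0468), no filter (0.00717), sex as a covariate (0.0127) and all 48 libraries (0.0222). Slc40a1 differed between LPS and R848 by −0.29 in LynKO, −0.18 in LynAKO, 0.09 in LynBKO and −0.06 in WT cells. Those values are a description only, because the LPS libraries led to the choice of Slc40a1. For the ferritin chains the differences were between −0.10 and 0.14 in the 4 genotypes, and 0 of 8 pairs passed; without replicate 4 Fth1 passed in LynKO (0.19, 0.0472) and LynAKO cells (0.24, 0.0107), and with total counts Ftl1 passed in WT cells (−0.24, 0.0272).

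LynKO minus WT was then set out for the 6 members other than Slc40a1. Of 18 pairs of a member and a treatment 6 passed (1 higher, 5 lower; 8 with the replicate block), where 8.49% of all tested genes passed with LPS, 5.93% with R848 and 9.9% without ligand. In comparisons of genotypes the block joins libraries of different mice by their replicate number, so it is not a test of paired mice. Because LynKO minus WT is a contrast that chose Slc40a1, nothing is read from the share.

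Fth1 was lower in LynKO cells. Without ligand LynKO cells had 9088, 8599, 9851 and 9435 CPM, against 13610, 11380, 11120 and 12770 CPM in WT cells, with no overlap. The log2 difference was −0.39 ± 0.08 (adjusted p = 0.00215) without ligand and −0.36 ± 0.09 (0.0122) with LPS by edgeR's quasi-likelihood test. With R848 it was −0.32 ± 0.12 (0.136), and with the replicate block, which here joins different mice by number, −0.31 (0.00584). Ftl1 differed by −0.09 ± 0.09 without ligand, 0.00 ± 0.08 with LPS and −0.07 ± 0.11 with R848, so the lower Fth1 to Ftl1 ratio of LynKO cells came with a lower Fth1 count.

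Slc11a1 was also lower in LynKO cells. Without ligand it stood at 217, 224, 219 and 238 CPM, against 309, 284, 312 and 307 CPM in WT cells, and the groups did not overlap. The log2 difference was −0.42 ± 0.07 (adjusted p = 0.00032) without ligand and −0.29 ± 0.09 (0.0366) with LPS by edgeR's quasi-likelihood test. The LPS call was lost with total counts (−0.19, 0.135) and without LynKO replicate 1 (0.0753), 2 (0.0956) or 3 (0.1) or WT replicate 1 (0.119) or 3 (0.0645). With R848 it was −0.24 ± 0.09 (0.108; 0.0418 with the replicate block).

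Tfrc and Lcn2 differed in LPS-treated cells. Tfrc was higher in LynKO cells with LPS, at 32.3 ± 4.15 CPM, against 21.8 ± 4.58 CPM in WT cells (SD, n = 4 each), with no overlap. The log2 difference was 0.58 ± 0.14 (adjusted p = 0.0155, edgeR quasi-likelihood), lost without LynKO replicate 4 (0.49, 0.0597) or WT replicate 1 (0.48, 0.0625) or 4 (0.51, 0.0525). It was 0.26 ± 0.16 with R848 and 0.06 ± 0.14 without ligand. Lcn2 was lower in LynKO cells with LPS, at 55.2 ± 8.21 CPM, against 82.0 ± 14.7 CPM in WT cells, again with no overlap. Its log2 difference was −0.55 ± 0.15 (adjusted p = 0.0289). The call was lost with all 48 libraries in the fit (−0.57, 0.0822) and without LynKO replicate 2 (0.079) or 3 (0.0905) or WT replicate 1 (0.118). With R848 Lcn2 differed by −0.04 ± 0.17. Slc11a2 stood at 41.0 ± 5.34 CPM in LynKO cells and 51.3 ± 2.54 CPM in WT cells without ligand (−0.31 ± 0.10, adjusted p = 0.053), and passed with LynKO NT 4 and LynBKO NT 4 left out (−0.40, 0.0184) and with DESeq2 (−0.31, 0.0309). With total counts Slc11a2 did not pass there (−0.24, adjusted p = 0.137, edgeR quasi-likelihood).

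Other genes moved with LynKO in the same libraries. Summed proliferation markers, by total counts, reached 538 to 668 CPM in LynKO and 242 to 341 CPM in WT cells without ligand, and 8 of 8 were higher by the test. With LPS the sums were 623 to 691 CPM in LynKO and 429 to 546 CPM in WT cells, and with R848 623 to 699 CPM in LynKO and 365 to 519 CPM in WT cells. Summed macrophage markers were lower in LynKO cells (31200 to 34000 CPM) than in WT cells (44700 to 52800 CPM) without ligand, with 1 of 10 higher and 3 lower. They were 23400 to 25700 CPM in LynKO and 31100 to 34900 CPM in WT cells with LPS, and 24300 to 29800 CPM in LynKO and 35200 to 37700 CPM in WT cells with R848. Summed neutrophil markers were 117 to 144 CPM in LynKO and 183 to 198 CPM in WT cells with LPS, where Lcn2 differed, and 2 of 8 tested were lower. With R848 they were 119 to 136 CPM in LynKO and 172 to 187 CPM in WT cells, and without ligand 104 to 116 CPM in LynKO and 153 to 190 CPM in WT cells. Each sum is weighted to its most abundant markers and does not show a change of every gene in its list. The part of these markers in the iron gene differences was not tested.

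**Figure D4:**
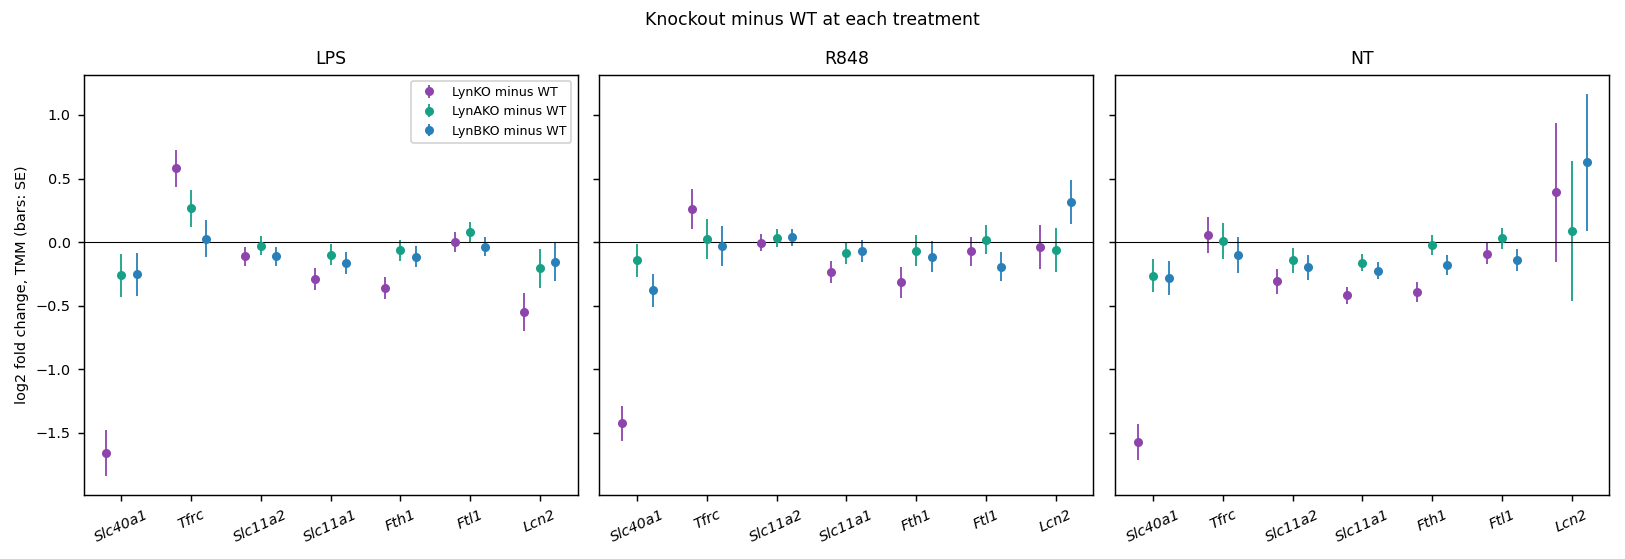
log2 fold change (TMM, bars SE) of each gene in LynKO, LynAKO and LynBKO cells minus WT with LPS, R848 and no ligand (NT). Slc40a1 is at −1.66 to −1.43 in LynKO cells and between −0.38 and −0.15 in LynAKO and LynBKO cells; Fth1 and Slc11a1 are below 0 in LynKO cells at all 3 treatments.

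In the single isoform knockouts 0 of 42 pairs of a member and a treatment passed against WT (5 at an unadjusted p under 0.05, and 0 with DESeq2). Without the pairs of Slc40a1, 0 of 36 passed. Of all tested genes edgeR called 0.0215% in LynAKO and 0.0358% in LynBKO cells with LPS, 0.00715% and 0% with R848, and 0.0286% and 0.0644% without ligand. DESeq2 called more: 9, 5 and 12 genes in LynAKO and 28, 16 and 124 in LynBKO cells with LPS, R848 and no ligand, where edgeR called 3, 1 and 4, and 5, 0 and 9. An unadjusted p under 0.05 was held by 747, 448 and 671 genes in LynAKO and 759, 636 and 1849 in LynBKO cells. Slc40a1 differed from WT by −0.26 ± 0.17, −0.15 ± 0.13 and −0.26 ± 0.13 in LynAKO cells with LPS, R848 and no ligand, and by −0.25 ± 0.17, −0.38 ± 0.13 and −0.28 ± 0.13 in LynBKO cells (log2, SE). These 6 values were all below 0, and none passed. The WT libraries are shared with the comparison that selected the gene. The values are therefore a description, and nothing is read from their common sign.

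LynKO was also set against each single knockout. Slc40a1 was lower in LynKO cells at all 3 treatments, with log2 differences from LynAKO of −1.40 with LPS, −1.28 with R848 and −1.31 without ligand, and from LynBKO of −1.41, −1.05 and −1.29 (described because the LynKO libraries chose the gene). Of the 36 pairs of another member 2 passed, Fth1 (−0.36 ± 0.08, adjusted p = 0.0101) and Slc11a1 (−0.26 ± 0.07, 0.0359), both in LynKO minus LynAKO without ligand, by edgeR's quasi-likelihood test. The Slc11a1 call was lost with total counts (0.103), with all 48 libraries in the fit (0.0634) and without 6 of the 8 replicates compared, 1 at a time (0.062 to 0.116). With LPS, Tfrc was 0.55 ± 0.14 higher in LynKO than in LynBKO cells (0.0769, no overlap). It passed with DESeq2 (0.0209), total counts (0.0452), no filter (0.000341) and without LynAKO replicate 4 (0.0432). Fth1 in LynKO minus LynAKO with LPS (−0.29 ± 0.09, 0.109) passed with DESeq2 (0.0381), no filter (0.0107) and without WT replicate 1 (0.0465). With no filter, Lcn2 with LPS also passed against LynAKO (−0.34, 0.0363) and LynBKO (−0.40, 0.0055), as did Fth1 without ligand against LynBKO (−0.21, 0.0203). With Slc40a1 counted, DESeq2 called 10 of 42 pairs and edgeR 8. The shares of all tested genes that passed against LynAKO were 1.09% with LPS, 0.858% with R848 and 3.39% without ligand, and against LynBKO 0.629%, 1.72% and 3.57%.

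LynAKO minus LynBKO gave 0 of 21 member pairs (1 at an unadjusted p under 0.05, 0 with DESeq2). The 3 pairs of Slc40a1 among them are not read as tests. Of all tested genes 0% passed at any treatment. Among all genes 353 with LPS, 445 with R848 and 1173 without ligand had an unadjusted p under 0.05, and DESeq2 called 0, 0 and 1.

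The ligand responses of the knockouts were compared with those of WT by an interaction term. The pairs counted include 4 of Slc40a1, which share libraries with its choice and are not read as tests. Of 40 pairs 0 passed (2 at an unadjusted p under 0.05, 0 with DESeq2), against 0.1% of all tested genes for LPS and 0.193% for R848 in LynKO cells and 0% in the other 4 comparisons. In those 4 comparisons DESeq2 called 0 genes for LPS in LynAKO, 2 for R848 in LynAKO, 0 for LPS in LynBKO and 1 for R848 in LynBKO cells, and 366, 328, 458 and 430 genes had an unadjusted p under 0.05. The LPS response of Tfrc in LynKO cells exceeded that in WT by 0.52 ± 0.23 (adjusted p = 0.556, edgeR quasi-likelihood), and with the replicate number as a block by 0.53 (0.0348), in a fit that held the LynBKO NT libraries. The R848 response of Slc11a2 exceeded it by 0.32 ± 0.12 (adjusted p = 0.351). The LPS response of Lcn2 differed by −0.95 ± 0.51 (0.704), with few counts in NT libraries.

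Other genes of iron metabolism, and transcription factors listed with them, gave context: 69 tested genes of 7 pathway lists, the members left out. With LPS in WT cells 30 rose and 22 fell (median log2 change 0.06, against −0.03 for all tested genes), and in LynKO cells 28 rose and 21 fell. With total counts 19 rose and 38 fell in WT cells, and 20 rose and 34 fell in LynKO cells. By TMM 61.6% of all tested genes passed with LPS in WT and 61.7% in LynKO cells, so nothing is read from these counts. Slc39a14, which takes up iron not bound to transferrin, rose by 5.28 ± 0.14 with LPS and 4.81 ± 0.14 with R848 in WT cells (log2), the largest rise in the lists with LPS. Cp, the plasma ferroxidase that works with ferroportin, rose by 4.77 ± 0.33 with LPS and 4.13 ± 0.33 with R848. Cp averaged only 1.64 CPM in WT cells without ligand, which limits the precision of the fold. Nfkbiz, an inducible NF-kB cofactor, rose by 4.56 ± 0.14 and 5.50 ± 0.15. Smad7, an inhibitor of BMP signalling to hepcidin, changed by −1.71 and −1.67, and Cpox, a haem synthesis enzyme, by −1.31 and −0.98.

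By list, where 61.6% of all tested genes passed with LPS in WT cells (4407 higher and 4202 lower), 12 of 16 tested sensing and transcriptional regulators rose and 3 fell (median log2 change 0.90). That list was drawn up with general transcription factors such as Nfkbiz, Cebpd, Stat3 and Myc beside iron sensors such as Aco1 and Ireb2. Its count is therefore not read as a rise of iron sensors. Of 22 genes of mitochondrial iron, haem synthesis and Fe-S clusters, 4 rose and 11 fell (median −0.25). Of 12 genes of haem uptake, breakdown and export, 3 rose and 4 fell (median −0.11). With total counts these were 8 and 5, 2 and 16, and 2 and 10.

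LPS minus R848 in WT cells passed for 10 of the 69 genes upward and 6 downward (7 and 16 with total counts), where 21% of all tested genes passed, and nothing is read from the share. Alas1, the first enzyme of haem synthesis, was higher with LPS by 0.89 ± 0.10, and Slc25a28, a mitochondrial iron importer, by 0.73 ± 0.13 (log2). Cd163, the receptor for haemoglobin bound to haptoglobin, was lower (−1.14 ± 0.17), as was Hmox1, which breaks down haem (−0.89 ± 0.12).

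LynKO minus WT without ligand passed for 4 of the 69 genes upward and 12 downward (5 and 9 with total counts; median −0.06). With LPS 4 were higher and 5 lower (5 and 4 with total counts), and with R848 0 were higher and 2 lower (1 and 0). Of all tested genes 9.9% passed without ligand, 8.49% with LPS and 5.93% with R848. The lists were drawn up with results of these data known, so nothing is read from the shares. Hp (haptoglobin) was lower in LynKO cells without ligand (−1.74 ± 0.24) and with LPS (−0.81 ± 0.25), as was Cebpd, a transcription factor of the acute phase (−1.05 ± 0.15 and −0.76 ± 0.16). Steap3, an endosomal ferrireductase that acts with Tfrc and Slc11a2, was higher by 0.34 ± 0.08 and 0.56 ± 0.14. Trf, transferrin itself, was lower with LPS (−0.71 ± 0.12) and R848 (−0.47 ± 0.12). In LynAKO and LynBKO cells 0 of the 69 passed against WT at any of the 3 treatments by edgeR; of those 414 pairs 32 had an unadjusted p under 0.05, and DESeq2 called 2, both in LynBKO cells without ligand.

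Of the 9372 genes with a mean of at least 5 CPM, those whose 12 group means of log2 CPM followed Slc40a1 most closely were Hpgd (r = 0.981), Serinc3 (0.977) and Idh1 (0.974). For Tfrc they were Hacd3 (0.993), Nkrf (0.978) and Utp15 (0.976), and for Lcn2 they were Nod2, Gramd1a and Hivep2 (each 0.999). The points share libraries and scaling, so r is given as a description. RefSeq promoter windows (GRCm38.p6, 250 bases before to 50 after the start) were available for 5 members in 7 windows. Slc40a1 and Slc11a2 had no window and were not searched. The NF-kB motif GGGANNNNCC, searched on both strands, matched 1 of the windows and 20.7% of all promoter windows. The match lay in the downstream window of Fth1 (9982396 to 9982695), 86 bases before its start, and the upstream Fth1 window held none. The antioxidant response element TGACNNNGC matched 0 of 7 and 12.4% of all.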

How the data were processed

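The submitters' processing notes name the build GRCm38 and the tools STAR 2.5.2b, Trimmomatic 0.36, Subread 1.5.2 with featureCounts, and DESeq2. The annotation release and the strand setting are not stated. The deposited raw counts per Ensembl gene of 48 libraries were used for every test. The authors' deposited variance-stabilised values on a log2 scale were not used for tests; there WT cells differed between LPS and NT by −1.19 for Slc40a1 and 3.85 for Lcn2. The 7 genes and the gene lists were chosen with earlier results of these data known.

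Genes were kept by filterByExpr (minimum count 10, minimum total 15), normalised by TMM factors within each fit, and compared in R 4.3.3 by edgeR 4.0.16 (quasi-likelihood F test), with Benjamini-Hochberg adjustment over the 13986 genes of each of 36 comparisons and a threshold of 0.05. Each genotype's 12 libraries entered its ligand comparisons, each treatment's 16 its genotype comparisons, and all 48 the response differences. A ± after a log2 value is its SE. Ranges over alternatives are given with DESeq2 1.42.0, RLE size factors, no filter, sex, the replicate number as a block, other sets of libraries, total counts and single replicates left out. Genes of the lists were named by size of change, up to 3 each way per comparison with a mean of at least 5 CPM, and not all are reported.

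Same-numbered libraries of a genotype deviated together from their group means (correlations of 0.32 to 0.73), except in LynBKO NT (down to −0.59 for numbers 2 and 3), where the sex labels of NT 2 and 3 are exchanged against LPS and R848. The design text gives 4 mice per genotype but ties no number to a mouse; on these correlations the numbers were taken to pair libraries outside LynBKO NT, and block values are given where they change a call. Across genotypes same-numbered libraries correlated at 0.14 to 0.69, LynBKO NT excepted. In genotype comparisons the block joined these libraries, which come from different mice, so its values there are not a test of paired mice. The number also follows the sex label: 1 and 2 are male and 3 and 4 female, LynBKO NT 2 and 3 excepted. Total counts were 14974764 to 23321447 a library, and intervals from counts would cover counting error only.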

Additional observations from a re-analysis of the deposited data

Results flagged for a closer look

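In 84 groups of 4 libraries (7 genes in 12 groups), 2 held a library whose gap to its nearest neighbour exceeded Dixon's critical share of the group's range, where chance flags about 1 group in 20. In R848-treated LynBKO cells Tfrc stood at 22.6 CPM in replicate 4, against 29.3 to 30.5 CPM in the other 3 replicates. In R848-treated LynKO cells Ftl1 stood at 7903 CPM in replicate 4, against 6001 to 6133 CPM in the other 3. Without that replicate the R848 difference of Ftl1 in LynKO cells passed, at −0.29 (adjusted p = 0.00154, edgeR quasi-likelihood).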

How the results depend on the processing

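Counts of member pairs past the threshold were 49 of 52 for ligands against NT (4 of them Slc40a1 with R848) and 7 of 28 for LPS against R848. They were 6 of 60 for knockouts against WT, 8 of 63 between knockouts (6 of them Slc40a1, which the LynKO libraries chose) and 0 of 40 for response differences. The Slc40a1 pairs in these counts are kept only to compare settings and are not read as tests. Without Slc40a1, 23 of 24 pairs passed for LPS minus NT and 22 of 24 for R848 minus NT. For LynKO minus a single knockout 2 of 36 passed. The shares of all tested genes are given with each comparison above. Over DESeq2, RLE size factors, no filter, sex as a covariate, the replicate block, other libraries in the fit and omission of LynBKO NT 4 and LynKO NT 4, and total counts (added after seeing the data), 3 counts moved by over 1.5 times. With the replicate block LPS against R848 gave 12 and response differences 1, and with no filter the knockouts gave 13. With single replicates left out the counts were 46 to 50, 5 to 9, 3 to 7 (3 without WT replicate 1), 7 to 9 and 0. Of the pairs that had passed, 9 reversed, each with total counts: Fth1 with LPS −0.017 in LynKO, −0.116 in LynAKO, −0.022 in LynBKO and −0.089 in WT cells, Fth1 with R848 −0.094 in LynAKO, −0.018 in LynBKO and −0.062 in WT cells, Tfrc with LPS −0.051 in LynBKO cells and Slc11a1 with LPS −0.049 in WT cells. That setting lowers every ligand difference by the shift of the median of all genes. The block also called Fth1 with LPS in LynKO minus LynAKO (−0.297, adjusted p = 0.0221). In LynBKO cells, where the NT libraries in the fit have numbers that do not pair, it called Slc11a1 for LPS minus R848 (adjusted p = 0.0199) and lost Slc11a2 (0.0511). It changed no call that is not named. Depth limits Lcn2 without ligand, at 8 to 49 counts a library.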
